A study of Mus musculus with 13 samples.

Results

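The 44 genes described here encode collagens, the enzymes and chaperones that mature them, and the other matrix and surface proteins typical of fibroblasts. They were chosen from genes known for these functions and on their levels in the Dnmt1−/− and WT libraries of this same series, so their values in that comparison are a description, with no p given for them and nothing concluded from calls on them. Of the 44 genes, 42 were found among the 26797 genes of the 6 replicate libraries and 44 among the 49671 genes of the 4 single libraries. Timp1 and Timp3 were not analysed here in the replicate libraries.

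The study used RNA-seq of polyadenylated RNA from mouse embryonic stem (ES) cells to ask how DNA methylation and O-GlcNAc, a sugar attached to nuclear proteins, take part in silencing retrotransposons. WT cells (3 replicate libraries) were of the AinV15 ES line, and Dnmt1−/− cells (3 replicate libraries) were of the D1-null strain, which carries the C allele of Dnmt1, the maintenance DNA methyltransferase. Both were untreated and were grown on gelatin in serum with leukemia inhibitory factor, with no feeder cells named. Because the genotypes came from separate lines, genotype and line cannot be told apart. The dCas9-OGA cells (OGA library below) were AinV15 cells with an inducible fusion of nuclease-dead Cas9 to O-GlcNAcase (OGA), the enzyme that removes O-GlcNAc. They received 4 guide RNAs to the U3 region of IAP retrotransposons and 1 µg/mL doxycycline for 48 h. The dCas9-OGA-D242A cells (D242A control below) were treated alike but carried an OGA mutant that neither binds nor removes O-GlcNAc. Each of these conditions had 1 library, in a table with 1 WT and 1 Dnmt1−/− library that nothing ties to a replicate. Nothing states whether these 2 are replicates processed again or separate libraries. Nor is it stated that their line and culture were those of the replicates.

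Collagen chains are hydroxylated and folded into triple helices in the endoplasmic reticulum, secreted, trimmed and then crosslinked into fibrils or networks by lysyl oxidases. Fibroblasts and other mesenchymal cells make most of the fibrillar collagens, together with fibronectin, fibrillins, small proteoglycans and matricellular proteins that tune how cells hold the fibrils. Undifferentiated ES cells are better known for basement membrane components such as laminins, and many of the genes below are used as signs of mesenchymal differentiation in ES cell cultures.

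The replicate libraries held 26846275 to 37112247 reads on genes in WT and 27934568 to 30950554 in Dnmt1−/− cells, and the single libraries 18693531 to 25097983. Nothing states that the replicates were separate cultures, so p-values measure only the spread between these libraries, which may be technical. Levels in the replicate libraries are given as the deposited signal, a read count scaled by 1 factor per library, always in the order of the replicate numbers. Dnmt1 itself stood at 308, 352 and 347 in WT and at 73.6, 75.4 and 77.6 in Dnmt1−/− cells, lower in 3 of 3 Dnmt1−/− libraries, with a log2 fold change of −2.14 and a limma adjusted p of 1.1e-20. In the single libraries Dnmt1 stood at 460.2 cpm (counts scaled to a common library size) in WT, 61.9 in Dnmt1−/−, 549 in the OGA library and 376 in the D242A control. The pluripotency factors checked the ES cell label. Pou5f1 stood at 303, 318 and 298 in WT and 283, 271 and 263 in Dnmt1−/− cells, and Nanog at 716, 680.2 and 723 and 766, 738 and 737. Sox2 was not analysed here in the replicates and stood between 540.3 and 811 cpm in the single libraries.

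Most of the matrix genes stood at a lower level in Dnmt1−/− than in WT cells, and the gap was widest for fibulin 5 and tenascin C. The 42 genes together took 1.02, 1.15 and 0.864% of the reads in the 3 WT libraries and 0.349, 0.358 and 0.350% in the 3 Dnmt1−/− libraries. Every WT share was thus above every Dnmt1−/− share, and the Dnmt1−/− libraries lay much closer together. The folds given for single genes are ratios of the WT to the Dnmt1−/− mean signal, with a median of 4.43. Log2 fold changes are mean differences of log2(signal + 0.5), which gives smaller values for most genes. By these, 31 genes were at least 2-fold lower in Dnmt1−/− cells, 20 at least 4-fold and 5 at least 8-fold, and more genes passed 8-fold by the ratio of means. The 42 genes all passed the filter on low counts. In the limma fit over 17297 genes, 37 of the 42 were called lower in Dnmt1−/− cells, where 35.4% of all genes were, and 1 was called higher, where 35.8% were. The 3 Dnmt1−/− values lay below all 3 WT values for 37 of the 42, where this held for 36.2% of all genes. Because the genes were chosen on this contrast, nothing is read from these counts. The median log2 fold change of the 42 genes was −1.85, where that of all genes was 0.01. In bulk RNA, fewer cells that express such genes and less of their RNA per cell cannot be told apart.

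**Figure D1:**
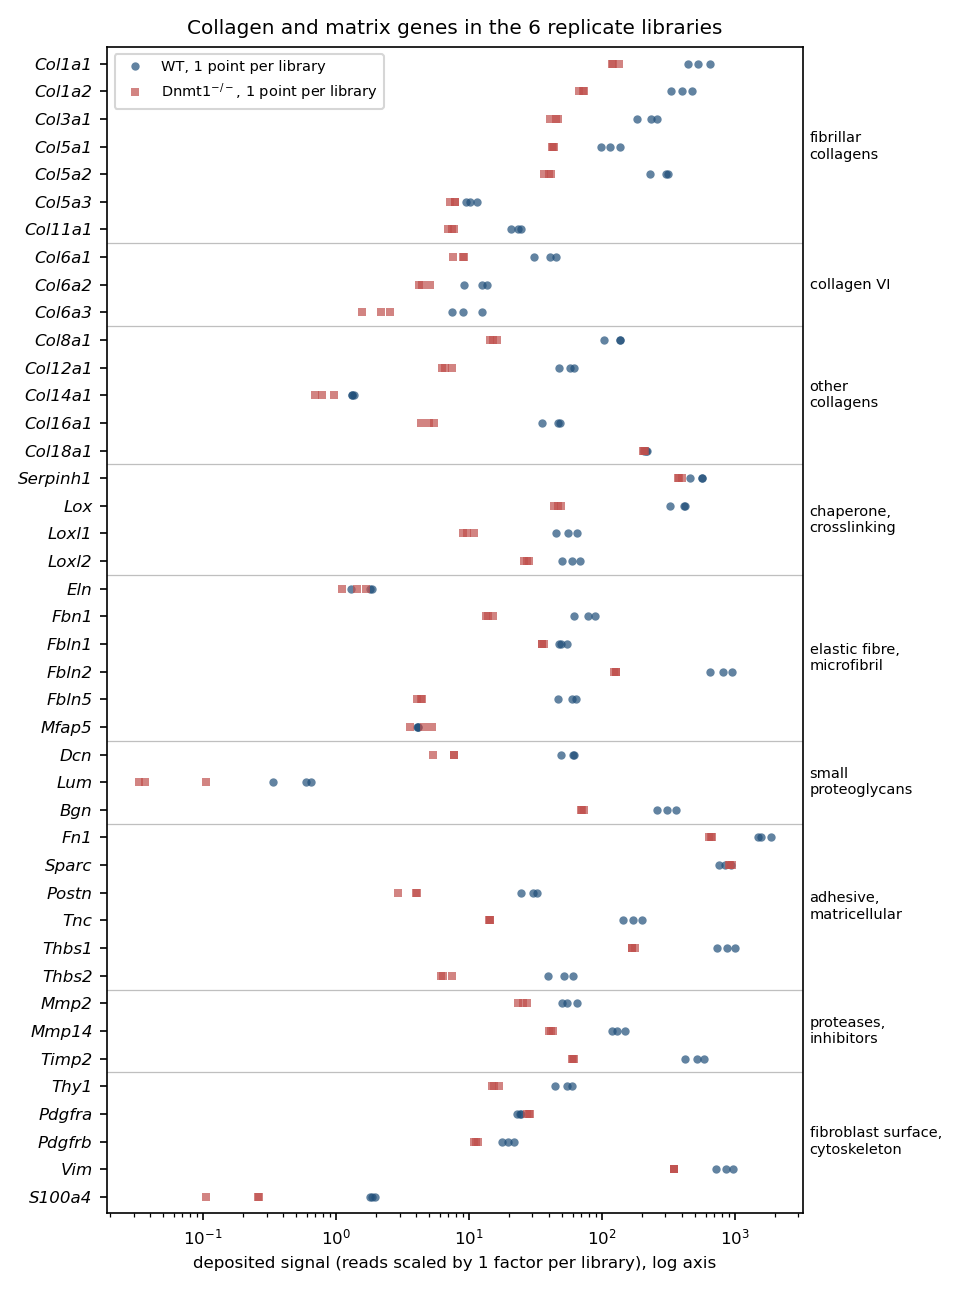
Deposited signal (log axis) of the 42 collagen and matrix genes found in the replicate libraries, grouped by role, with 1 point per library (3 WT, 3 Dnmt1−/−). For 37 genes all Dnmt1−/− points lie to the left of all WT points. For Col18a1, Eln, Mfap5 and Sparc the points overlap, and for Pdgfra the Dnmt1−/− points lie to the right.

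The fibrillar collagens form the tensile core of connective tissue, and all 7 on the list stood lower in Dnmt1−/− cells, with a median log2 fold change of −2.09. Col1a1 (ENSMUSG00000001506, on chromosome 11 of GRCm38 from 94936224 to 94953042) encodes the major chain of type I collagen and stood at 524, 654 and 440.1 in WT and 121, 133 and 119 in Dnmt1−/− cells, 4.33-fold lower. Col1a2, which supplies the other chain of type I collagen, stood at 397, 477 and 329 in WT and 72.3, 73.3 and 67.2 in Dnmt1−/− cells, 5.65-fold lower. For both chains WT replicate 2 was the highest and WT replicate 3 the lowest, and the genotypes did not overlap. Col3a1, the single chain of the type III collagen of extensible tissues such as skin and vessels, stood at 235, 259.6 and 185 in WT and 45.0, 46.9 and 40.6 in Dnmt1−/− cells, 5.12-fold lower. The spread between WT libraries was again wider than that between Dnmt1−/− libraries, and far smaller than the gap between the genotypes.

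Type V collagen starts fibrils and sets their width, and its chains differed among themselves. Col5a1 stood at 115, 136 and 97.5 in WT and 42.7, 42.2 and 43.8 in Dnmt1−/− cells, 2.71-fold lower. Col5a2 stood at 314, 305 and 231 in WT and 39.8, 41.3 and 36.9 in Dnmt1−/− cells, 7.20-fold lower and the widest gap among the fibrillar chains. The rarer chain gene Col5a3 stood at 10.2, 11.5 and 9.41 in WT and 7.17, 7.82 and 7.81 in Dnmt1−/− cells, 1.36-fold lower. Here the lowest WT library came close to the highest Dnmt1−/− library, but the values did not overlap. Col11a1, a chain of the type XI collagen best known from cartilage, stood at 24.5, 23.5 and 20.8 in WT and 7.69, 7.43 and 7.001 in Dnmt1−/− cells, 3.11-fold lower. Its 3 WT values lay within a narrow range, well above the Dnmt1−/− values.

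Some chains that join in 1 molecule differed in their ratio between the genotypes. Per kilobase of exon, the signal of Col1a1 over that of Col1a2 was 2.50, 2.60 and 2.53 in WT and 3.17, 3.43 and 3.36 in Dnmt1−/− libraries. Col1a1 lies on chromosome 11, whose genes as a whole stood higher in Dnmt1−/− cells (given below), and Col1a2 does not. The part of this in the ratio was not tested. The ratio of Col5a1 to Col5a2 was 0.414, 0.505 and 0.477 in WT and 1.21, 1.16 and 1.34 in Dnmt1−/− libraries. Both ratios were higher in all 3 Dnmt1−/− libraries than in any WT library. In type VI collagen, which forms beaded filaments around cells, the ratio of Col6a1 to Col6a2 moved the other way, from 6.19, 6.30 and 6.44 in WT to 4.20, 3.90 and 2.84 in Dnmt1−/− libraries. The ratio of Col6a1 to Col6a3 stood at 12.4, 9.77 and 11.4 and 16.1, 9.63 and 9.49, and these values overlapped. The exon lengths counted every annotated exon base of a gene, so the ratios compare libraries and do not give the stoichiometry of the chains.

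All 3 type VI collagen genes stood lower in Dnmt1−/− cells, with a median log2 fold change of −1.95. Col6a1 stood at 38.9 ± 7.26 (SD, n = 3) in WT and 8.61 ± 0.917 in Dnmt1−/− cells, 4.52-fold lower. Col6a2 was 2.59-fold and Col6a3 4.59-fold lower. Col6a3, which encodes the largest of the chains, was the scarcest per kilobase, with a signal of 1.57 to 2.56 in the Dnmt1−/− libraries.

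The other collagens on the list differed widely in their gaps. Col8a1, a short-chain collagen of vessel walls and the cornea, averaged 126 ± 18.7 (SD, n = 3) in WT and 15.2 ± 0.844 in Dnmt1−/− cells, 8.27-fold lower. Col12a1 and Col16a1, which encode collagens that attach to the surface of fibrils, were 8.15-fold and 8.82-fold lower. Col14a1, of the same fibril-associated class, was scarce, at 1.32 to 1.38 in WT and 0.696 to 0.958 in Dnmt1−/− cells, 1.65-fold lower. Col18a1, the basement membrane collagen from which endostatin is cut, was singled out after its values were seen, and stood at 208, 215 and 217 in WT and 211, 204 and 207 in Dnmt1−/− cells. Its values overlapped, its fold was 1.03, and it was the most abundant of these 5 genes in both genotypes, per kilobase of exon. Col18a1 thus stood apart from the fibril-associated collagens, which share its name but not its place in the matrix.

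The genes that fold and crosslink collagen stood lower by very different factors. Serpinh1 encodes HSP47, the collagen chaperone of the endoplasmic reticulum, and averaged 529.9 ± 63.2 (SD, n = 3) in WT and 383 ± 15.4 in Dnmt1−/− cells, 1.38-fold lower. Lox, which oxidizes lysines so that collagen and elastin can crosslink, averaged 388 ± 55.7 in WT and 46.7 ± 2.69 in Dnmt1−/− cells, 8.31-fold lower. Its relatives Loxl1 and Loxl2 were 5.63-fold and 2.17-fold lower. The genotypes did not overlap for any of these 4 genes. Per kilobase, Serpinh1 stood at 217 in WT and 157 in Dnmt1−/− cells, so that in Dnmt1−/− cells the chaperone far exceeded Lox at 9.77, where in WT cells Lox stood at 81.1.

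The 6 genes of elastic fibres and microfibrils had a median log2 fold change of −1.43. Fbln5, whose product guides tropoelastin onto microfibrils, stood at 59.6, 64.0 and 46.8 in WT and 4.32, 4.08 and 4.46 in Dnmt1−/− cells. This 13.3-fold gap was the widest of the 42 genes, with a log2 fold change of −3.57. Fbln2, of the same fibulin family, stood at 807 ± 150.1 (SD, n = 3) in WT and 126 ± 2.42 in Dnmt1−/− cells, 6.39-fold lower. Fbln1, by contrast, was 1.41-fold lower, so the fibulins did not share 1 ratio. Fbn1, the main microfibril protein of adult tissues, was 5.38-fold lower. Eln, which encodes elastin itself, was scarce, at 1.29 to 1.87 in WT and 1.11 to 1.67 in Dnmt1−/− cells, and these ranges overlapped. Mfap5, a microfibril-associated glycoprotein, stood at 4.13, 4.16 and 4.06 in WT and 5.26, 4.57 and 3.61 in Dnmt1−/− cells. Its Dnmt1−/− values lay on both sides of the WT values and spread more widely than they did, with a log2 fold change of 0.10.

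The small leucine-rich proteoglycans bind collagen fibrils and limit their growth. Decorin (Dcn) averaged 56.9 ± 6.54 (SD, n = 3) in WT and 6.92 ± 1.34 in Dnmt1−/− cells, 8.22-fold lower. Biglycan (Bgn), the most abundant of the 3 per kilobase of exon, stood at 311 ± 49.6 in WT and 71.6 ± 1.94 in Dnmt1−/− cells, 4.34-fold lower. Lumican (Lum) stood below 1 in all 6 libraries, at 0.338 to 0.647 in WT and 0.0329 to 0.104 in Dnmt1−/− cells. The 3 Dnmt1−/− values for Lum rested on 3, 1 and 1 reads, so its log2 fold change of −0.87 understates a 9.03-fold ratio of means that is itself imprecise.

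The adhesive and matricellular proteins link cells to fibrils or modulate that link, and 5 of the 6 stood lower in Dnmt1−/− cells. Fn1 (ENSMUSG00000026193) encodes fibronectin and stood at 1569, 1863 and 1480.1 in WT and 633, 667 and 654 in Dnmt1−/− cells, 2.51-fold lower. The lowest WT library still held more than every Dnmt1−/− library. Tnc (tenascin C), a matrix protein of developing and healing tissue, stood at 171, 199 and 144 in WT and 14.2, 14.5 and 14.4 in Dnmt1−/− cells, 11.9-fold lower. The Dnmt1−/− libraries lay close together for Tnc, whereas the WT libraries spread. Postn (periostin), a matricellular protein, stood at 32.4, 30.4 and 24.4 in WT and 4.00, 4.08 and 2.95 in Dnmt1−/− cells, 7.90-fold lower. Its Dnmt1−/− replicate 3 was the lowest of the 6. The thrombospondins, which bind matrix and latent TGF-β, were 5.05-fold (Thbs1) and 7.57-fold (Thbs2) lower, with Thbs1 at 865 ± 138 (SD, n = 3) in WT cells.

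Sparc, which binds collagen and is also made in quantity by parietal endoderm, did not share the pattern. It stood at 845, 936 and 756 in WT and 917, 907 and 942 in Dnmt1−/− cells. All 3 Dnmt1−/− values lay above WT replicates 1 and 3, and 1 of them lay above WT replicate 2, the highest. Thus the genotypes overlapped, and the log2 fold change was 0.13. Per kilobase of exon, Sparc was the most abundant of the 42 genes in both genotypes.

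The matrix proteases Mmp2 and Mmp14 and the inhibitor Timp2 stood lower, and the other inhibitors had no values in the replicates. Mmp2, a gelatinase that degrades denatured collagen, averaged 56.5 ± 7.37 (SD, n = 3) in WT and 25.3 ± 1.86 in Dnmt1−/− cells, 2.23-fold lower. Mmp14, the membrane-bound protease that activates the Mmp2 zymogen, was 3.22-fold lower. Timp2, which inhibits metalloproteases and also takes part in that activation, stood at 520.1, 589 and 423 in WT and 61.1, 59.0 and 60.2 in Dnmt1−/− cells, 8.49-fold lower. All 3 WT values for Timp2 lay far above the Dnmt1−/− values, which differed little from each other.

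The surface and cytoskeletal genes used to mark fibroblasts did not move as 1 group. Thy1, a surface glycoprotein of fibroblasts and several other cell types, stood at 55.0, 59.9 and 44 in WT and 16.7, 15.4 and 15.0 in Dnmt1−/− cells, 3.37-fold lower. Vim (vimentin), the intermediate filament of mesenchymal cells that ES cells also express, stood at 856, 971 and 714 in WT and 346, 346 and 345 in Dnmt1−/− cells, 2.45-fold lower. The Dnmt1−/− values for Vim were nearly identical, while the WT values differed by up to 1.36-fold. Pdgfra, a PDGF receptor of mesenchymal and primitive endoderm cells, stood at 23.0, 24.7 and 24.0 in WT and 27.2, 28.7 and 28.2 in Dnmt1−/− cells. It was the single gene of the 42 with all Dnmt1−/− values above all WT values, by a log2 fold change of 0.22. Its partner Pdgfrb stood 1.74-fold lower. S100a4, a calcium-binding protein also called fibroblast-specific protein, was scarce, at 1.80 to 1.96 in WT and 0.104 to 0.263 in Dnmt1−/− cells.

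Per kilobase of exon, the order of the genes differed between the genotypes. In WT cells Sparc (223 signal per kilobase), Serpinh1 (217), Vim (179), Thbs1 (142), Fn1 (140.1), Timp2 (131) and Fbln2 (127) led, ahead of Col1a1 (82.2) and Lox (81.1). In Dnmt1−/− cells Sparc (243) and Serpinh1 (157) still led, followed by Vim (72.8), Fn1 (55.7), Col18a1 (29.6) and Thbs1 (28.2). Fbln2 (19.8), Col1a1 (19.0) and Timp2 (15.4) stood lower there.

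The WT libraries also differed among themselves in a shared way. The highest WT value was in replicate 2 for 32 of the 42 genes (76.2%), where this held for 36.4% of all genes, and the lowest was in replicate 3 for 37 (88.1%), where this held for 33.7%. The median deviation of the 42 genes from their WT mean on the log2 scale was 0.03, 0.18 and −0.24 in the 3 WT libraries. WT replicate 2 was also the most deeply sequenced and WT replicate 3 the least, and the part of depth in this order was not tested. In Dnmt1−/− cells the highest value was in replicate 1 for 13 genes (31.0%, and 34.4% of all genes), in replicate 2 for 21 (50%, and 26.2%) and in replicate 3 for 8 (19.0%, and 39.4%). The lowest was in replicate 3 for 22 (52.4%), where this held for 30.2% of all genes. The median ratio of the highest to the lowest WT library was 1.36, and the median ratio between the genotypes was 4.43. The genes were chosen on the contrast of the genotypes, so nothing is read from the difference between these ratios.

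The genes are scattered over the genome, on 18 chromosomes with at most 6 genes on any of them, and few are neighbours. Only 4 neighbouring pairs lay within 500 kb of each other. Col3a1 and Col5a2 lie 24.6 kb apart on chromosome 1, Col6a2 and Col6a1 85.2 kb apart on chromosome 10, and Dcn and Lum 47.0 kb apart on the same chromosome. Col6a1 and Col18a1 lie 326 kb apart, and this pair combined a gene 4.52-fold lower in Dnmt1−/− cells with one whose values overlapped. Col1a1, Sparc and Timp2 lie on chromosome 11, whose 1198 tested genes had a median log2 fold change of 0.38 in the replicates. The part of this shift in the values of the 3 genes was not tested. For 12 of the 44 genes some exon bases also belong to another annotated gene, and the share exceeded 10% for Fbn1 (20.1%), Timp3 (21.3%) and S100a4 (51.7%). The overlapping gene is on the other strand for Fbn1 and Timp3 and on the same strand for S100a4, so the reads of these genes are uncertain. The labels name an unstranded library kit and the paper a stranded one, and nothing states whether the counting used the strand. Whether reads from the other strand entered the values of Fbn1 and Timp3 is thus not known.

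Promoter sequences were matched in RefSeq (GRCm38.p6) for 28 of the 44 genes, with 34 annotated starts. Not matched were Col1a1, Col5a2, Col12a1, Col14a1, Lox, Loxl1, Loxl2, Eln, Mfap5, Dcn, Lum, Fn1, Thbs1, Mmp2, Thy1 and Pdgfrb. In the 250 bases before the start the dinucleotide CG, the site of DNA methylation, occurred 0 to 28 times with a median of 8, where the median over 32851 windows of 27025 genes was 6. The median GC content was 58.6%, where that of all windows was 52.4%. The letters TATAAA, searched on both strands, were in 7 of the 34 windows (20.6%) and in 12.4% of all windows. The letters CCAAT, searched likewise, were in 11 of the 34 (32.4%) and in 33.8% of all. The letters GGGCGG, the core of GC boxes, were in 21 of the 34 (61.8%) and in 32.7% of all, but this motif was not planned and was added to the search with the data at hand. These are matches of letters, not sites of a factor. The genes that stood lower spanned the whole range of CG content: Col3a1 had the sole window of the 34 without a CG, Col1a2 had 11 and Col5a1 had 28, the most. The windows of these 3 genes (chr1:45311288-45311537, chr6:4505368-4505617 and chr2:27886175-27886424, all on the plus strand) and of Sparc (chr11:55420081-55420330, minus strand, 4 CG), whose level overlapped between the genotypes, are printed 5′ to 3′ to show this range, with each CG in capitals.
Col3a1: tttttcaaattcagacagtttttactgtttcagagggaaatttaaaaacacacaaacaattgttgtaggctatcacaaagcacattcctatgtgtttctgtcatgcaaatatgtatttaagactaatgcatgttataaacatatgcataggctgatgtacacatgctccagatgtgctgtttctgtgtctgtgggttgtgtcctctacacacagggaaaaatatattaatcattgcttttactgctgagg
Col1a2: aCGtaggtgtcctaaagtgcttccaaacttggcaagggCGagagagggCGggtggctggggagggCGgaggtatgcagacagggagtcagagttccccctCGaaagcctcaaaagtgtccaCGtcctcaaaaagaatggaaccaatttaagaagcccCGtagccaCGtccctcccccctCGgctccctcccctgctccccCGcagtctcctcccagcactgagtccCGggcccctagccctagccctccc
Col5a1: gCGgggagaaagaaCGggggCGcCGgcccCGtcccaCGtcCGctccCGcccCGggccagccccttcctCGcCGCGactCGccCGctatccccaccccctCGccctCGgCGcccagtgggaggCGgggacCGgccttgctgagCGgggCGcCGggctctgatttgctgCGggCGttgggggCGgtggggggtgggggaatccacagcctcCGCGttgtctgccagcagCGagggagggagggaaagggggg
Sparc: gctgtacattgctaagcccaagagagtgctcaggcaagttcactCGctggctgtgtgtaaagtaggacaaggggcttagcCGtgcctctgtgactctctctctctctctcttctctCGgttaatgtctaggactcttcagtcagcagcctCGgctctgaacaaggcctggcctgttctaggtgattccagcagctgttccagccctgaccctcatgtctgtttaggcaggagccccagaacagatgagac

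Other genes of the matrix, none of them among the 44, were read from lists of known genes, with calls from the same limma fit. These lists and the marker lists below were also chosen with earlier results of these data known. Their counts are therefore a description and not independent of that choice. Over all 17297 genes 6128 fell and 6196 rose, with a median log2 fold change of 0.01. Over the lists of matrix, receptor, TGF-β, PDGF and transcription factor genes together, 128 of 198 genes tested fell and 37 rose, with a median of −0.65 that was −0.30 with a pseudocount of 5 and −0.86 with edgeR and with DESeq2. For each gene given with a log2 fold change from these lists and from the marker lists, the 3 Dnmt1−/− values lay on 1 side of the 3 WT values and limma's adjusted p over all genes was 0.00346 (Meox1) or lower. The named genes are those with the largest falls and rises, given by their log2 fold change.

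Basement membrane genes, the matrix that ES cells themselves are known to make, showed little net shift: 10 of 20 fell and 6 rose, with a median of −0.14. Col4a5 (−2.67) and Col4a6 (−2.51), which encode network-forming type IV chains, fell, while the laminin chain genes Lama1 (0.98) and Lama3 (0.63) rose. Collagens outside the 44 genes fell in 12 of 22 cases and rose in 2, with a median of −0.37. The cartilage collagen gene Col2a1 (−1.64) and Col24a1 (−1.47) fell, and Col17a1 (0.70) and Col23a1 (0.60), both of membrane-anchored collagens, rose. The enzymes that modify, export and trim collagen were split, with 13 of 30 lower and 13 higher and a median of 0.05. Loxl3 (−2.66), a further lysyl oxidase, and the procollagen protease gene Tll1 (−2.64) fell, whereas P4hb (1.22) and P4ha2 (1.06), subunits of the prolyl hydroxylase that stabilizes the triple helix, rose. P4hb, P4ha2 and Col23a1 lie on chromosome 11, and the part of its median shift of 0.38 in their rises was not tested. The same limit holds for Itgb3, Itga3, Meox1, Smtn, Hand1, Hba-a1, Cd68 and Polr2a, named below and also on chromosome 11. P4hb stood at 475, 484 and 457 in WT and 1105, 1061 and 1136 in Dnmt1−/− cells.

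Other matrix glycoproteins and proteoglycans fell in 24 of 31 cases and rose in 2, with a median of −1.20. Efemp1 (−2.99), a fibulin, and Ltbp2 (−2.78), a microfibril protein, fell, and Smoc1 (0.67) and Cyr61 (0.25) rose. Proteases and inhibitors outside the 44 genes fell in 20 of 27 cases and rose in 5, with a median of −1.12. The plasminogen activator gene Plau (−2.92) and the metalloprotease gene Mmp3 (−2.88) fell, while Plaur (0.93), the receptor of that activator, and Mmp9 (0.49) rose. Matrix receptors fell in 15 of 24 cases and rose in 5, with a median of −0.63. The hyaluronan receptor gene Cd44 (−2.56) and the laminin receptor gene Itga7 (−1.95) fell, and the integrin genes Itgb3 (1.31) and Itga3 (1.03) rose.

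TGF-β signalling is the best known inducer of collagen genes, and 10 of 16 of its genes fell and 3 rose, with a median of −0.40. Lrrc32 (−3.26), which holds latent TGF-β on the cell surface, and the ligand gene Tgfb3 (−2.38) fell, while Smad2 (0.25) and the receptor gene Tgfbr1 (0.22) rose. Among the PDGF genes 4 of 5 fell and none rose, with a median of −0.60, and the ligand genes Pdgfd (−2.76) and Pdgfc (−1.62) fell furthest. Mesenchymal transcription factors fell in 20 of 23 cases, with a median of −1.10. Prrx1 (−3.18) and Twist2 (−2.63) fell furthest, and Meox1 (0.50) was the single one that rose, from a mean of 0.590 to 1.03.

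Markers of cell types that an ES cell culture could hold were read in the same libraries, and their part in the values of the collagen and matrix genes was not tested. Fibroblast markers outside the 44 genes fell in 16 of 19 cases and rose in 2, with a median of −1.30, and 8 of the 23 listed are also on another list. Their summed signal was 1037, 1096 and 887 in WT and 414, 404 and 406 in Dnmt1−/− libraries, with Fstl1 the most abundant and Fap, Dpt and Clec3b below 1 in all 6. Prrx1 and Cdh11 (−3.04), a mesenchymal cadherin, fell furthest, while Pcolce (0.45), which enhances procollagen cleavage, and Meox1 rose. Smooth muscle markers fell in 9 of 10 cases and rose in 1, with a median of −2.22. Their summed signal was 768, 865 and 629 in WT and 139, 139 and 138 in Dnmt1−/− libraries, with Acta2 the most abundant and Myocd below 1 in all 6. Acta2, the actin of smooth muscle and myofibroblasts, stood at 491, 559.9 and 392 in WT and 30.3, 30.5 and 28.1 in Dnmt1−/− cells (−3.98). Myl9 (−3.03) fell with it and Smtn (0.74) rose. Both sums had the order of the collagen and matrix genes in WT, highest in replicate 2 and lowest in replicate 3.

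ES cell markers fell in 6 of 13 cases and rose in 3, with a median of −0.07. Their summed signal was 6639, 6592 and 6781 in WT and 6679, 6425 and 6313 in Dnmt1−/− libraries, with Dppa5a the most abundant and none below 1 in all 6. Gdf3 (−0.75) and Esrrb (−0.45) fell furthest, and Tdgf1 (0.31) and Utf1 (0.21) rose. Markers of primitive and parietal endoderm, which lay down basement membrane and Sparc, fell in 1 of 17 cases and rose in 10, with a median of 0.70, and 5 of the 20 listed are basement membrane genes. Their summed signal was 2606, 2810.0 and 2612 in WT and 3027, 2981 and 3103 in Dnmt1−/− libraries, with Lamc1 the most abundant and Afp, Ttr and Apoa1 below 1 in all 6. Pth1r (1.61) and Srgn (1.42) rose furthest, and Col4a2 (−0.24) was the one that fell.

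Trophoblast markers fell in 2 of 9 cases and rose in 7 (median 0.69), with sums of 71.0, 74.2 and 72.4 in WT and 103, 107 and 113 in Dnmt1−/− libraries, Tfap2c the most abundant, and Elf5 and Prl3d1 below 1 in all 6. Gata2 (−0.85) and Krt7 (−0.76) fell, and Hand1 (3.03) and Esx1 (1.51) rose furthest. Primitive streak and mesoderm markers rose in 4 of 9 cases and fell in none (median −0.07), with sums of 71.0, 75.6 and 74.0 in WT and 83.5, 83.3 and 83.0 in Dnmt1−/− libraries, Tcf15 the most abundant, and T, Mixl1, Mesp1, Tbx6 and Msgn1 below 1 in all 6. Eomes (1.08) and Mixl1 (0.61) rose furthest, and 5 of the 12 listed are on another list. Neural markers fell in 2 of 4 cases and rose in none (median −0.41), with sums of 112, 118 and 104 in WT and 46.6, 45.5 and 43.5 in Dnmt1−/− libraries, Nes the most abundant, and Pax3, Neurog1, Neurog2 and Hes5 among those below 1 in all 6. Nes (−1.40) and Pax6 (−0.58) were the ones that fell.

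Endothelial markers fell in 3 of 8 cases and rose in 3 (median −0.11), with sums of 51.0, 50.9 and 52.4 in WT and 49.0, 47.3 and 49.6 in Dnmt1−/− libraries, Tek the most abundant, and Emcn, Egfl7 and Sox18 below 1 in all 6. Erg (−2.29) and Emcn (−0.88) fell furthest, and Cdh5 (1.30) and Esam (1.24) rose furthest. Blood markers fell in 5 of 8 cases and rose in 2 (median −0.61), with sums of 41.1, 44.8 and 41.1 in WT and 42.5, 44.8 and 44 in Dnmt1−/− libraries, Cd68 the most abundant, and Ptprc and Hba-a1 among those below 1 in all 6. Adgre1 (−1.97) and Tyrobp (−1.06) fell furthest, and Hba-a1 (1.15) and Cd68 (0.34) rose. Housekeeping genes rose in 4 of 10 cases and fell in none (median 0.08), with sums of 15127, 15887 and 15466 in WT and 17344, 17067 and 17588 in Dnmt1−/− libraries and Eef1a1 the most abundant. Hprt (2.38) rose furthest, from a mean of 21.1 to 111, followed by Polr2a (0.54).

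In the single libraries most of the 44 genes were scarce, and a few made up most of their counts. The 44 genes took 0.332% of the counts in WT, 0.258% in Dnmt1−/−, 0.277% in the OGA library and 0.249% in the D242A control. In the same order of libraries, Fn1 stood at 552, 835, 1096 and 837 cpm. Sparc stood at 942, 545, 478 and 355 cpm. Col18a1 stood at 906, 603, 568 and 563 cpm. Vim stood at 365, 265, 165 and 149 cpm. Per kilobase, Sparc, Col18a1, Fn1 and Vim stood at the top or near it in all 4 libraries. The 7 fibrillar collagens together held between 59.9 and 108 cpm. Postn, which had few counts, stood at 0.888, 0.736, 0.483 and 0.684 cpm. No count fell on Col8a1 in the OGA library, which allows a level of up to 0.121 cpm (3 counts), or on Col8a1 and S100a4 in Dnmt1−/−, which allows up to 0.158 cpm. Timp1, a secreted inhibitor picked out after its values were seen, stood at 36.8, 42.5, 41.0 and 32.7 cpm, and was thus nearly even.

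**Figure D2:**
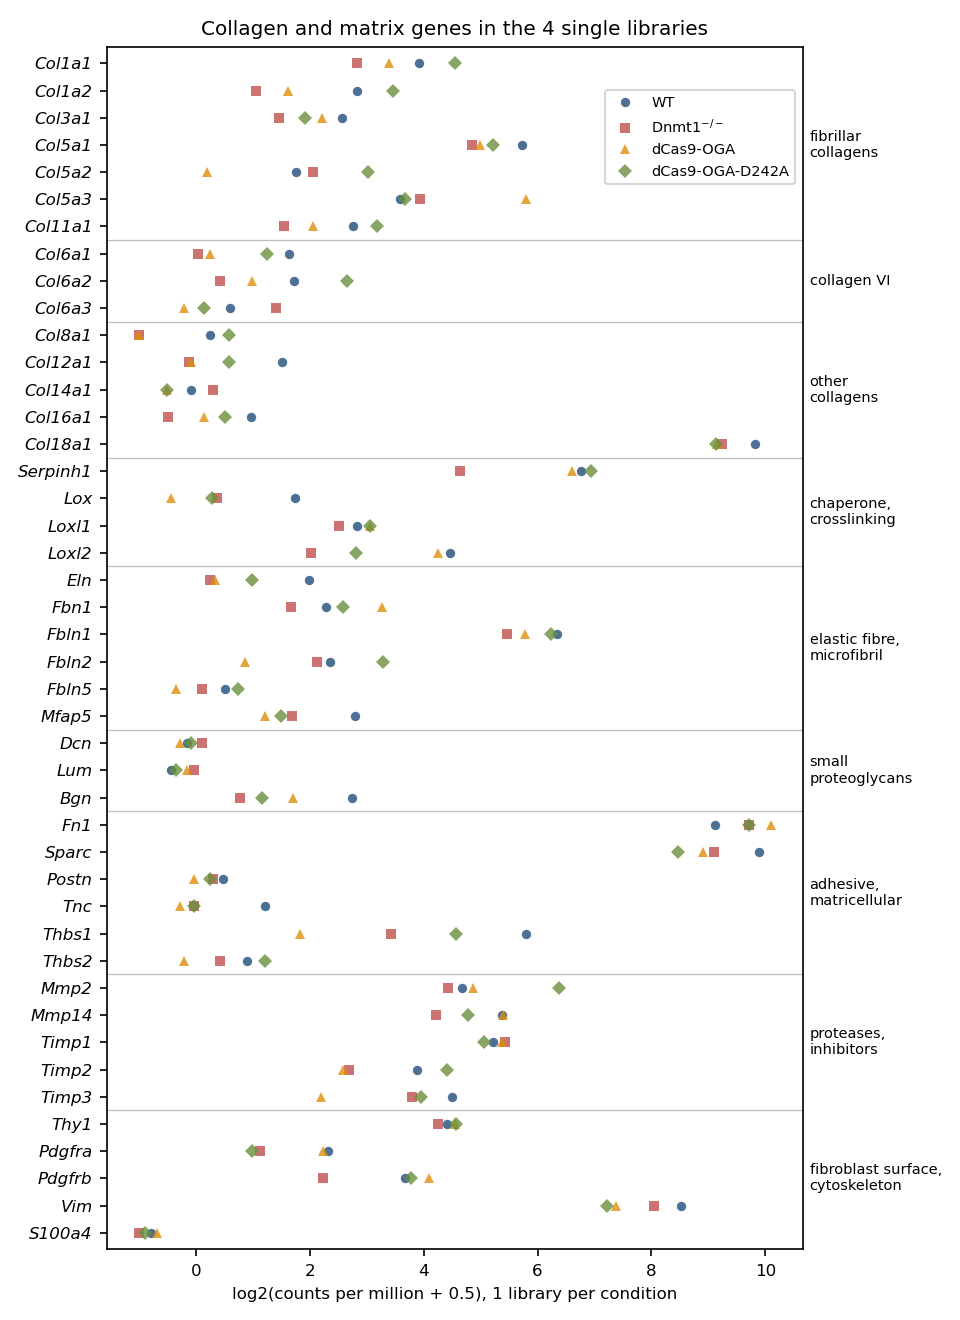
Level of the 44 collagen and matrix genes in the 4 single libraries, as log2(cpm + 0.5), with 1 point per library and no replicates. Fn1, Sparc, Col18a1 and Vim lie at the high end in every library, and the other genes lie below them.

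The comparisons of single libraries rest on 1 library each, so no test was made and no p is given. The 95% intervals are exact binomial intervals of the ratio and cover counting error only. The printed ratios are of cpm with nothing added, and the 2-fold counts and medians use log2(cpm + 0.5). Genes with fewer than 100 counts summed over both libraries were left out of the counts of genes past 2-fold. All 3 comparisons share a library with another, so they are not independent of each other.

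The comparison of the OGA library with the D242A control asks what removal of O-GlcNAc by the targeted enzyme changes beyond its presence. Of 29 matrix genes with enough counts, 3 were at least 2-fold higher in the OGA library, where 4.88% of 12722 genes were, and 10 were at least 2-fold lower, where 7.22% were. The other 16 lay within 2-fold, and the median log2 ratio of the 29 was −0.03, where that of all genes was 0.03. This median was near 0 and was 0.02 with DESeq2 size factors and −0.34 over the 40 genes with at least 20 summed counts. Col5a3 was the gene with the widest excess in the OGA library, at 55.1 against 12.2 cpm, a ratio of 4.51 (95% interval 3.98 to 5.12). Pdgfra stood at 4.23 against 1.49 cpm, a ratio of 2.84 (95% interval 1.94 to 4.25). Loxl2 stood at 18.5 against 6.52 cpm, a ratio of 2.83 (95% interval 2.36 to 3.41). In the OGA library the levels of Pdgfra and Loxl2 were close to those of the single WT library, at 4.48 and 21.5 cpm, and that of Col5a3 was not, at 11.5 cpm in WT.

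The fibrillar collagens differed from each other in this comparison, and their summed level was 108 cpm in the OGA library and 102 cpm in the D242A control. Col5a3 alone made up 55.1 cpm of the first sum and 12.2 cpm of the second. Col5a2 had the widest gap, at 0.645 against 7.60 cpm in the D242A control, a ratio of 0.0848 (95% interval 0.0475 to 0.141). Col1a2 had a ratio of 0.246 (95% interval 0.184 to 0.325), Col1a1 of 0.439 (95% interval 0.377 to 0.510) and Col11a1 of 0.426 (95% interval 0.329 to 0.547). Col5a1, the partner of Col5a2 in type V collagen, had a ratio of 0.854 (95% interval 0.775 to 0.940), and Col3a1 of 1.27 (95% interval 0.943 to 1.73), whose interval covers no difference. Both were added after their values were seen. The ratio of Col6a2 was 0.257 (95% interval 0.174 to 0.371) and that of the microfibril gene Fbln2 0.144 (95% interval 0.0970 to 0.208). Thbs1 stood at 3.06 against 23.3 cpm, a ratio of 0.132 (95% interval 0.102 to 0.167). Among the protease genes and their inhibitors, Mmp2 had a ratio of 0.345 (95% interval 0.317 to 0.376), Timp2 of 0.266 (95% interval 0.219 to 0.322) and Timp3 of 0.272 (95% interval 0.217 to 0.340). Mmp2 was high in the D242A control rather than low in the OGA library when set beside the other libraries, at 25.1 cpm in WT and 20.9 in Dnmt1−/−. Whole chromosomes also differed between these libraries, with a median log2 ratio of −0.46 on chromosome 11, which holds Col1a1 and Timp2, −0.47 on chromosome 8, which holds Mmp2, and 0.40 on chromosome 1, which holds Col5a2. Their part in the ratios of these genes was not tested.

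The single Dnmt1−/− and WT libraries compare the same genotypes as the replicates. The genes were chosen on this contrast in this series, and nothing states that these libraries are separate from the replicates. Nothing is thus read from the counts of genes given here. Of 28 genes with enough counts, 13 were at least 2-fold lower in Dnmt1−/−, where 6.89% of 12593 genes were, and 0 were at least 2-fold higher, where 10.5% were. The count of 13 was 3 with a pseudocount of 5 cpm and 20 of 41 with at least 20 summed counts. The other 15 lay within 2-fold, and the median log2 ratio of the 28 was −0.87, where that of all genes was −0.07. Loxl2 had the widest gap, at 3.58 against 21.5 cpm, a ratio of 0.166 (95% interval 0.127 to 0.214). Thbs1 followed at 10.3 against 54.8 cpm, a ratio of 0.188 (95% interval 0.161 to 0.219). Serpinh1 stood at 24.5 against 109 cpm, a ratio of 0.225 (95% interval 0.204 to 0.249). The collagen chaperone thus had a far wider gap here than the 1.38-fold of the replicates. Bgn had a ratio of 0.196 (95% interval 0.121 to 0.305) and Mfap5 of 0.426 (95% interval 0.306 to 0.587). The fibrillar chains below the 2-fold line were Col1a1, with a ratio of 0.448 (95% interval 0.362 to 0.550), Col1a2, with 0.240 (95% interval 0.157 to 0.356), Col3a1, with 0.418 (95% interval 0.290 to 0.594), and Col11a1, with 0.387 (95% interval 0.272 to 0.541). Mmp14 had a ratio of 0.445 (95% interval 0.393 to 0.504) and Timp2 of 0.417 (95% interval 0.335 to 0.517). Both PDGF receptors stood lower, Pdgfra with a ratio of 0.376 (95% interval 0.245 to 0.561) and Pdgfrb with 0.343 (95% interval 0.265 to 0.440).

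Some genes with at least 100 summed counts stood on opposite sides in the replicates and in the single libraries. Fn1 was lower in Dnmt1−/− replicates but had a ratio of 1.51 (95% interval 1.48 to 1.55) in the single libraries. Col5a2, 7.20-fold lower in the Dnmt1−/− replicates, had a ratio of 1.27 (95% interval 0.899 to 1.79), which covers no difference. Pdgfra, the single gene whose Dnmt1−/− values all lay above the WT values in the replicates, was below WT here.

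The comparison of the D242A control with the single WT library gives the levels in cells that hold the inactive fusion, the guides and the drug. Of 31 genes with enough counts, 2 were at least 2-fold higher in the D242A control, where 12.5% of 12933 genes were, and 7 were at least 2-fold lower, where 8.28% were. With a pseudocount of 5 cpm these counts were 1 and 4. The other 22 lay within 2-fold on that scale, 2 of them, Col6a2 with 2.05 (95% interval 1.53 to 2.77) and Eln with 0.429 (95% interval 0.284 to 0.638), past 2-fold by the ratio with nothing added, and the median log2 ratio of the 31 was −0.11, where that of all genes was 0.01. Mmp2 was higher, with a ratio of 3.29 (95% interval 3.01 to 3.61), and so was Col5a2, with a ratio of 2.62 (95% interval 1.99 to 3.48). These are also genes that stood lower in the OGA library than in the D242A control. The median log2 ratio was 0.33 on chromosome 8, which holds Mmp2, and 0.04 on chromosome 1, which holds Col5a2. On chromosome 11, which holds Sparc, it was 0.22. The part of these shifts in the ratios was not tested. Sparc stood at 355 against 942 cpm, a ratio of 0.377 (95% interval 0.368 to 0.386). Vim stood at 149 against 365 cpm, a ratio of 0.407 (95% interval 0.392 to 0.423). Sparc and Vim were thus lower in both cell populations with a fusion protein than in the single WT library. The same held for the single Dnmt1−/− library, at 545 cpm for Sparc and 265 cpm for Vim. The ratio was 0.280 (95% interval 0.195 to 0.395) for Bgn, 0.303 (95% interval 0.252 to 0.361) for Loxl2 and 0.424 (95% interval 0.384 to 0.468) for Thbs1. It was 0.332 (95% interval 0.223 to 0.486) for Pdgfra and 0.364 (95% interval 0.265 to 0.494) for Mfap5.

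The marker lists, read the same way, also differed between single libraries, and their part in the ratios of the matrix genes was not tested. For the OGA library against the D242A control the median log2 ratio was −1.47 (1 up and 6 down of 10) for fibroblast, −0.92 (0 up and 3 down of 7) for smooth muscle, 0.96 (7 up and 1 down of 15) for endoderm, −0.39 (1 up and 3 down of 8) for trophoblast, 0.40 (0 up and 0 down of 4) for streak and mesoderm, −1.31 (1 up and 3 down of 5) for neural, −0.46 (1 up and 2 down of 6) for endothelial, 0.52 (3 up and 0 down of 14) for ES cell and −0.00 (0 up and 0 down of 10) for housekeeping genes, with genes past 2-fold in brackets. Blood markers, with at most 2 genes with enough counts, are left out. For Dnmt1−/− against WT it was −0.49 (1 up and 2 down of 11) for fibroblast, −1.51 (0 up and 5 down of 7) for smooth muscle, −1.09 (0 up and 8 down of 16) for endoderm, −1.35 (0 up and 7 down of 10) for trophoblast, −0.85 (0 up and 2 down of 6) for streak and mesoderm, −0.21 (1 up and 0 down of 5) for neural, 0.38 (1 up and 0 down of 6) for endothelial, −0.24 (0 up and 0 down of 14) for ES cell and 0.13 (2 up and 0 down of 10) for housekeeping genes. The endoderm and trophoblast lists, whose medians were above 0 in the Dnmt1−/− replicates, thus had medians below 0 in the single Dnmt1−/− library. For the D242A control against WT it was −0.18 (0 up and 1 down of 10) for fibroblast, −0.38 (0 up and 1 down of 7) for smooth muscle, −0.94 (1 up and 7 down of 16) for endoderm, −1.76 (0 up and 7 down of 10) for trophoblast, −1.14 (0 up and 4 down of 6) for streak and mesoderm, −0.22 (0 up and 0 down of 5) for neural, 0.23 (1 up and 1 down of 6) for endothelial, −0.42 (0 up and 1 down of 14) for ES cell and −0.02 (1 up and 1 down of 10) for housekeeping genes.

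Set side by side with the replicates over the 26797 shared genes, the single WT library had a lower summed level of these genes than the WT replicates. The tables were aligned and normalized separately, so no test was made across them, and levels are in cpm computed over the shared genes. The 42 shared genes summed to 10214, 11506 and 8643 in the WT replicates and 3485, 3577 and 3496 in the Dnmt1−/− replicates. They summed to 3419.8 in the single WT library, 2646 in the single Dnmt1−/− library, 2845 in the OGA library and 2568 in the D242A control. In the single WT library 36 of the 42 genes stood below all 3 WT replicates and 5 above all 3. Of the 17297 genes tested in the replicates, 56.4% stood below and 37.9% above, so the tables differed for most genes. Because the 42 genes were chosen on their levels in libraries that include the WT replicates, nothing is read from their counts or sums here. Col1a1 stood at 15.2 cpm there, against 546, 678 and 456 in the WT replicates and 117, 131 and 116 in the Dnmt1−/− replicates. Lox stood at 2.97 there, against 433, 440.0 and 336 and 45.4, 48.3 and 42.6. Col18a1 differed the other way, at 939 against 217, 223 and 225 and 204, 201 and 201, and Sparc was nearly level at 976 against 881, 971 and 784 and 885, 892 and 915. For Col1a1 and Lox the single WT library therefore lay below even the Dnmt1−/− replicates.

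Genes outside the 44 also differed between the tables. Housekeeping genes summed to 15772, 16484 and 16039.7 cpm in the WT replicates, 16731, 16775 and 17088 in the Dnmt1−/− replicates and 6129, 9588, 7253 and 8684 in the single WT, Dnmt1−/−, OGA and D242A libraries, so their sum was lower in the single WT library as well. Eef1a1 was the most abundant of them, with a mean signal of 10827 in the replicates and 2170 cpm in the single WT library. The other genes of the list were not compared singly between the tables. Fibroblast markers summed to 1081, 1138 and 920.3 cpm in the WT replicates, 399, 397 and 394 in the Dnmt1−/− replicates and 541, 318, 391 and 363 in the single libraries, in the order given above. Smooth muscle markers summed to 801, 898 and 652, to 134, 136 and 134 and to 217, 129, 162 and 189.8 in the same order, and ES cell markers to 6922, 6840.1 and 7032, to 6443, 6315 and 6134 and to 6217, 5364, 7365 and 4845. The part of these genes in the difference between the WT libraries was not tested.

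**Figure D3:**
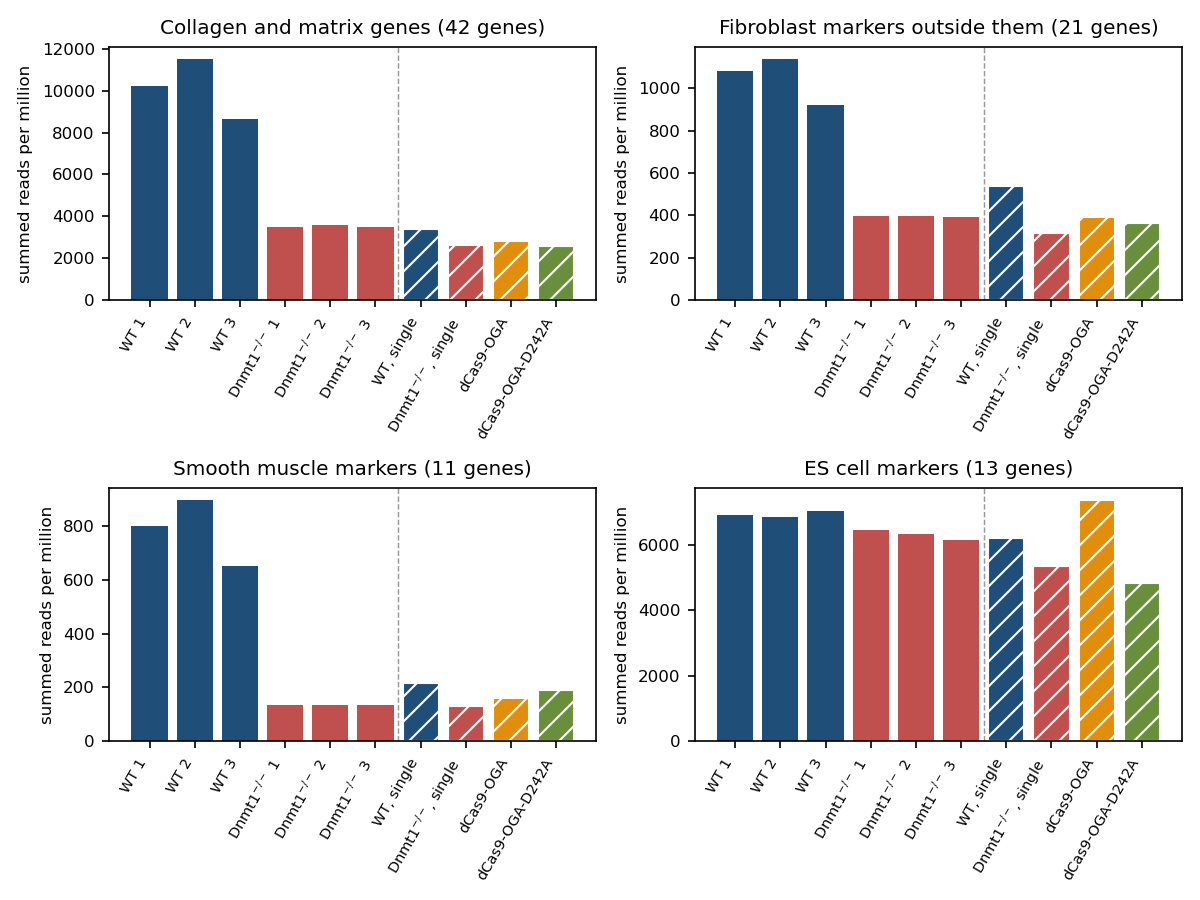
Summed cpm of the collagen and matrix genes and of 3 marker lists in the 6 replicate libraries (left of the dashed line) and the 4 single libraries (hatched bars, right of it), which were normalized separately. In the first 3 panels the WT replicates stand above all other libraries, and for ES cell markers they do not.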

How the data were processed

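Polyadenylated RNA of mouse ES cells was sequenced by the authors. Per the labels, reads were aligned to mm10 with TopHat2 2.0.11 or HISAT2 2.1.0 and counted over genes with featureCounts 1.5.0. The deposited count table of the single libraries holds 1 whole count per gene and library, and the deposited dCas9-OGA and dCas9-OGA-D242A counts equal it at 49671 genes. The deposited signal of the 6 replicate libraries is a read count that the authors scaled by 1 factor per library. All values (100%) were whole multiples of the smallest within 0.01, so whole reads were recovered. The column names of these files do not match their columns, so the value was taken by position.

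WT (n = 3) and Dnmt1−/− (n = 3) libraries were compared with limma 3.58.1 (R 4.3.3) on log2(signal + 0.5), with a mean-variance trend, for the 17297 genes left by the expression filter of edgeR, and p was adjusted by Benjamini and Hochberg's method. Genes were called at an adjusted p of 0.05. The calls numbered 12324 with limma, 12252 with edgeR 4.0.16 and 11404 with DESeq2 1.42.0. Tested on simulated data for this comparison (17297 genes), limma called 92 of 100 genes changed 2-fold, 98 of 100 changed 4-fold and 14 unchanged genes, edgeR 91, 98 and 14, and DESeq2 80, 96 and 8. The simulation changed only these genes, far fewer than were called in the data, so its rates need not hold for the real comparison. Replicates differed more than read sampling would make them, with a mean chi-square per gene of 3.03 to 10.8 where 1 was expected. Single libraries were compared as log2(cpm + 0.5) after TMM scaling, for genes with at least 100 summed counts, with 95% exact binomial intervals and no test. The interval of each ratio gives the precision that its depth allows.

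The collagen and matrix genes and the lists of pathway genes and markers were chosen with earlier results of these data known. Values in every library are given for the 7 fibrillar collagens, Fn1, Sparc, Postn, Thy1, Pdgfra, Vim and the 3 genes with the largest log2 fold change in each direction, and other genes by their fold or range. Each list gives up to 2 falls and 2 rises past the adjusted p. Single-library ratios are given for genes past 2-fold. Values given beyond this rule, including per-kilobase levels, chain ratios, Lox and Col18a1 in both tables, and the 4 promoters printed, were chosen after they were seen. Exon lengths and positions are from GENCODE (GRCm38), and promoters, 250 bases before each start, are from RefSeq annotation. Other tests, scalings, pseudocounts, filters, a replicate block and leaving out each library were tried as alternatives. ChIP-seq samples were left out because they do not measure RNA. Tables were made with Python 3.11.15, pandas 2.3.3 and NumPy 2.4.6, and figures with matplotlib 3.10.9.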

Additional observations from a re-analysis of the deposited data

Results flagged for a closer look

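Among the genes with at least 100 summed counts in the replicates and in the single libraries, there were 4 for which all 3 Dnmt1−/− replicates lay on 1 side of the WT replicates and the single Dnmt1−/− library lay on the other side of the single WT library. Fn1 stood at a log2 fold change of −1.32 in the replicates and at a log2 ratio of 0.60 in the single libraries. Col5a2 stood at −2.82 and 0.30, and Col5a3 at −0.42 and 0.36. Pdgfra stood the other way, at 0.22 in the replicates and −1.19 in the single libraries. The difference between the replicates and the single libraries was not tested for any of these genes, because each single-library ratio rests on 1 library per genotype. With fewer counts than this in the single libraries, Col6a3 (−1.95 and 0.82), Col14a1 (−0.49 and 0.39), Dcn (−2.96 and 0.26) and Lum (−0.87 and 0.39) also stood on opposite sides.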

How the results depend on the processing

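No called gene named here changed direction under the alternatives tried. Values near 0 did: the median of all genes, 0.01 as reported, was −0.02 with no filter beyond 1 read and just below 0 with edgeR, DESeq2 and TMM scaling, and Mfap5, 0.10 as reported, was −0.02 without Dnmt1−/− replicate 1. With limma, edgeR or DESeq2, with TMM scaling, with either other pseudocount, with no filter beyond 1 read, and without each library in turn, 37 of the collagen and matrix genes were called lower in Dnmt1−/− cells. With a mean signal of at least 1 required, 36 were, because Lum was not tested there. Because the genes were chosen on this contrast, these counts describe the settings and say nothing about stability. Calls over all genes ranged from 10921 to 13271. Of the values of single genes under the alternatives, 1619 kept their direction and their side of the threshold or moved little, 18 lost the threshold, 2 gained it and 5 without a test moved further.

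The median log2 fold change of the collagen and matrix genes, −1.85 as reported, was −2.16 with edgeR, −2.16 with DESeq2, −2.10 with a pseudocount of 0.1 and −1.52 with a pseudocount of 5. That of the pathway lists, −0.65 as reported, was −0.86 with edgeR, −0.86 with DESeq2, −0.78 with a pseudocount of 0.1 and −0.30 with a pseudocount of 5. A larger pseudocount draws the folds of scarce genes toward 0 by construction. The cause of the shift with edgeR and DESeq2 was not tested.

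With the replicate number as a block, 37 genes were called lower and 2 higher, the addition being Sparc. Over all genes tested, the deviations of replicates with the same number from their group means correlated at 0.074, −0.016 and 0.065. The collagen and matrix genes were most often highest in replicate 2 and lowest in replicate 3 in both genotypes. Whether the numbers pair the samples is not stated and was not tested. Leaving out 1 library at a time gave 1 to 2 genes called higher, with Sparc added without WT replicate 2, its highest WT library.

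For the OGA library against the D242A control, the median log2 ratio, −0.03 over 29 genes as reported, was 0.02 with DESeq2 size factors and −0.34 over 40 genes with a minimum of 20 summed counts, where 14 stood lower by 2-fold or more. The number of genes that stood lower in the single Dnmt1−/− library by 2-fold or more was 13 of 28 as reported, 3 of 28 with a pseudocount of 5 cpm, and 20 of 41 with a minimum of 20 summed counts, which admits more genes. For the D242A control against WT, a pseudocount of 5 cpm gave 4 lower and 1 higher, where 7 and 2 were as reported. A pseudocount of 5 cpm exceeds the level of many of these genes, and depth limits what can be said of them.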
